A study of Mus musculus with 26 samples.

Results

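*Srebf1* (ENSMUSG00000020538.15) lies on the minus strand of chromosome 11 and has 12 annotated transcripts, out of 116728 transcripts that could be matched to a gene of the GRCm38 annotation. All 12 were taken by Ensembl identifier, whatever their level, and they fall into 10 groups that share a first exon. The choice of *Srebf1* itself was made with earlier results of these data known. Bulk RNA-seq had been done on 26 colon samples of male wild-type C57BL/6J mice, from distal colon biopsies. The mice ate a standard diet (STD) or the same diet with GW3965, a synthetic agonist of the liver X receptors (LXRs). Colitis-associated tumours were induced with the carcinogen azoxymethane (AOM) and with dextran sodium sulfate (DSS) in the drinking water, which damages the epithelium. Samples were taken on days 22, 43 and 70 of AOM–DSS (3 per diet and day). The day 0 groups (4 per diet) came from mice that received neither agent, 2 after 22 days and 2 after 43 days on the diet. For either diet, 1 cage supplied all samples of days 22 and 43 and another cage all samples of day 0, whereas the mice of day 70 were caged apart. Diet and cage therefore cannot be told apart on days 0, 22 and 43. Within a diet, the mice of day 0 and those given AOM–DSS were in different cages, so AOM–DSS and cage cannot be told apart either. One day 0 sample titled GW3965 carries the diet label STD, and it was placed by its title.

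*Srebf1* encodes the precursor of SREBP-1, a membrane-bound transcription factor. The precursor sits in the endoplasmic reticulum with the sterol sensor SCAP and is cut in the Golgi to free the part that enters the nucleus and switches on genes of fatty acid synthesis. Alternative promoters give proteins with different amino termini. SREBP-1a has the longer and stronger activation domain and is typical of dividing cells, whereas SREBP-1c has a shorter one and predominates in liver and fat. LXRs bind DNA as heterodimers with retinoid X receptors (RXRs), and the 1c promoter is a textbook LXR target that also carries a site for SREBP itself.

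The transcripts with different first exons are shown first because every result below depends on how reads were divided among them. Srebf1-201 (chr11:60199089-60220604) carries the SREBP-1a first exon, and Srebf1-207 (chr11:60200463-60210465) the SREBP-1c first exon, with a start 10139 bases further downstream. The first exons differ in how many amino acids they add, as is seen in their coding parts, in which the capitals mark the start codon.
SREBP-1a first exon, coding part, chr11:60220453-60220543: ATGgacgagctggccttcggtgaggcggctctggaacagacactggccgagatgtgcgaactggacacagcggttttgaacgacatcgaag
SREBP-1c first exon, coding part, chr11:60210336-60210354: ATGgattgcacatttgaag
The 1a first exon has 152 bases, 91 of them coding, and the 1c first exon has 130 bases, 19 of them coding. The other coding transcript, Srebf1-203 (chr11:60199089-60207188), is annotated without a complete 5′ end. It begins within exon 2, so it names no first exon, and its exon 4 is 15 bases shorter than that of Srebf1-201 (123 against 138 bases). Those bases are shown in capitals within the flanking transcript sequence, since they are the only internal difference that separates Srebf1-203 from Srebf1-201.
exon 4 difference (chr11:60206173-60206187 in capitals): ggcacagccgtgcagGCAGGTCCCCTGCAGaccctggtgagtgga

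**Figure D1:**
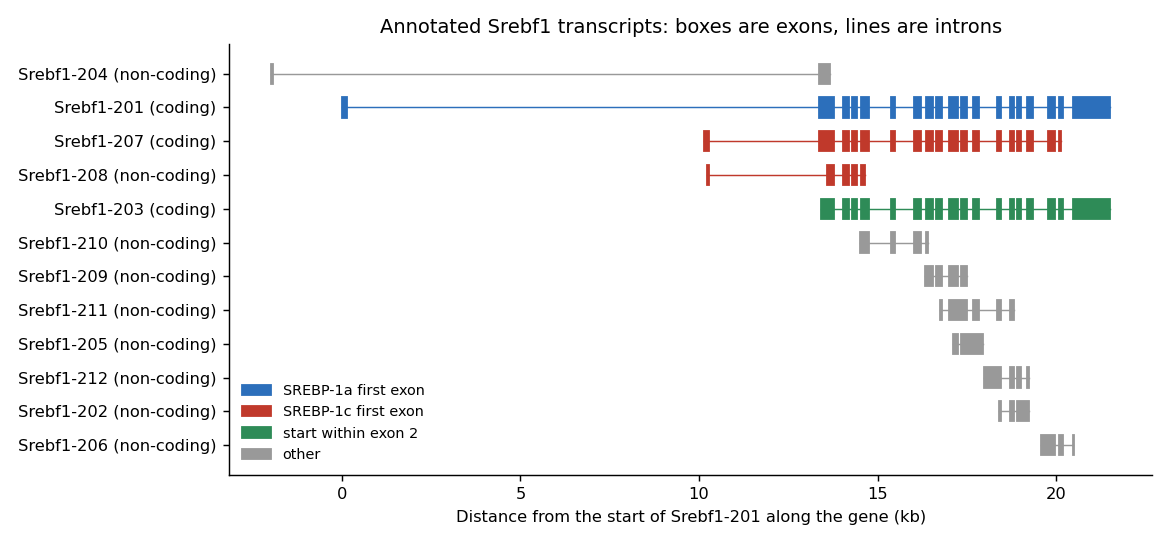
Exons (boxes) and introns (lines) of the 12 annotated *Srebf1* transcripts, with the distance from the start of Srebf1-201 in kb on the x axis and 1 transcript per row, coloured by first exon. Srebf1-207 ends before the last exons, whereas Srebf1-201 and Srebf1-203 reach the 3′ end of the gene.

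The remaining transcripts are non-coding. Srebf1-204 starts 1977 bases upstream of Srebf1-201, Srebf1-208 shares the 1c first exon, and 7 more transcripts start inside the gene. The annotated Srebf1-207 stops 1100 bases short of the 3′ end of Srebf1-201. Of the 31-base words into which the transcripts can be cut (31 bases being the length assumed here for matching), 2908 are shared by Srebf1-201, Srebf1-207 and Srebf1-203, and 1100 by Srebf1-201 and Srebf1-203 without Srebf1-207. Only 148 occur in Srebf1-201 alone among these 3, 126 in Srebf1-207 alone and 25 in Srebf1-203 alone. Reads from the 3′ end of a 1c mRNA could therefore be given only to Srebf1-201, Srebf1-203 or, over a short stretch, the non-coding Srebf1-206, and a rise in the 1a estimate cannot be told apart from 1c mRNA by these files. No value for the uncertainty of this division was used here, so that all errors are the spread between samples.

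The 250 bases before each RefSeq start (GRCm38.p6, minus strand, written 5′ to 3′ in the direction of transcription) are given for the 1c and 1a promoters, because LXR acts on the former. In the 1c window, the capitals mark an LXR direct repeat (AGGTCA and again AGGTCA, with 4 bases between them and up to 3 mismatches), a CCAAT box and a sterol regulatory element core (TCACCCNA), each searched on both strands.
SREBP-1c promoter, chr11:60210472-60210721: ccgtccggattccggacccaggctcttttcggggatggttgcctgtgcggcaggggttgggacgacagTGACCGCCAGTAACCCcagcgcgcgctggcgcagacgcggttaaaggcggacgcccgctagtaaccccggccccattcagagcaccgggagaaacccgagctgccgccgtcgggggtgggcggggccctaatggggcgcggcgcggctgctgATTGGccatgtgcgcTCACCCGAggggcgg
SREBP-1a promoter, chr11:60220628-60220877: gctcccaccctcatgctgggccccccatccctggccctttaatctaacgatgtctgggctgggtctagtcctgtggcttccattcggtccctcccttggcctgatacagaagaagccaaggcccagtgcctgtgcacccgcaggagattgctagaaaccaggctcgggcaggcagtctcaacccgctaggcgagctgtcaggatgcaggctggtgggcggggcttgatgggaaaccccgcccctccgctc
The direct repeat lies 182 to 167 bases before the 1c start with 3 mismatches. A match of this quality is found in 18.5% of 32851 RefSeq windows of the same length. The sterol element core lies 15 to 8 bases before the start and is found in 3.24% of the windows, and the CCAAT box (33.8% of windows) lies next to it. The 1a window held none of these 3 motifs. The 1a and the 1c window each held 2 GC boxes (GGGCGG), a motif of 32.7% of the windows. The 1c window also held 1 E-box (CANNTG), a motif of 66.2% of the windows. These matches are descriptions of the letters and not measured sites.

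The 26 libraries held between 18195345 and 41522204 estimated counts. All day 0 samples had an RNA integrity number (RIN) of 10, whereas the day 43 samples had values of 2.6, 8.4 and 7.8 on STD and 8, 6.8 and 9.3 on GW3965. Ribosomal protein genes took a percentage of the counts that ranged from 3.96% to 18.6% over all samples and from 10.0% to 18.6% on day 43, and it entered the model as a covariate. Epithelial markers (*Epcam*, *Cdh1*, *Krt8*, *Krt20*, *Car1*, *Muc2*) were detected in every group, but their summed level differed between days. On STD its median was 6239, 3506, 1179 and 4454 TPM (defined below) on days 0, 22, 43 and 70. On GW3965 it was 6081, 3012, 1905 and 4722 TPM. The part of this level in the *Srebf1* values was not tested. Fewer cells of a type and less RNA per cell cannot be told apart in bulk samples.

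*Srebf1* as a whole, the sum of its transcripts, was higher on the GW3965 diet on each of the 4 days, and every GW3965 sample was above every STD sample of its day. In TPM (transcript abundance relative to the library, corrected for length), *Srebf1* had 39.2, 28.7, 49.0 and 62.6 on STD on day 0. On GW3965 on day 0 it had 189, 218, 203 and 192. On day 22 the values were 30.5, 34.5 and 29.7 on STD and 134, 137 and 80.4 on GW3965. On day 43 they were 19.7, 18.8 and 19.8 on STD and 91.2, 53.6 and 115 on GW3965. On day 70 they were 70.2, 58.0 and 66.7 on STD and 216, 200.3 and 229.5 on GW3965. The log2 fold change of the counts of GW3965 over STD was 2.23 ± 0.17 (SE) on day 0 (edgeR quasi-likelihood test, adjusted P = 3.48e-07), 2.06 ± 0.19 on day 22 (1.74e-05), 1.81 ± 0.21 on day 43 (0.000358) and 1.66 ± 0.19 on day 70 (0.000169). Leaving out each sample of a day in turn, chosen as an alternative after seeing the data, kept the call on each day. Of 17063 genes tested, 0.0293% were called on day 0, 0.135% on day 22, 0.0293% on day 43 and 1.83% on day 70. The day 70 effect minus the day 0 effect was -0.57 ± 0.25 and did not pass (edgeR, adjusted P = 0.351).

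The level of *Srebf1* was highest on GW3965 on day 70 (215 ± 14.6 TPM, SD, n = 3) and on day 0 (200.5 ± 13.3, n = 4), and these groups overlapped. GW3965 on day 22 (117 ± 31.9, n = 3) followed without overlap with day 0, and then GW3965 on day 43 (86.5 ± 30.8, n = 3). The STD groups came below in the order day 70 (65.0 ± 6.26), day 0 (44.9 ± 14.4), day 22 (31.5 ± 2.57) and day 43 (19.5 ± 0.556). Among neighbours in this order, only GW3965 on days 0 and 22, and STD on days 22 and 43, did not overlap. Within STD, *Srebf1* on day 70 was higher than on day 0 by a log2 fold change of 0.54 ± 0.17 (edgeR, adjusted P = 0.0218). Within GW3965 it was lower on day 22 than on day 0, by -0.67 ± 0.19 (edgeR, adjusted P = 0.0222). In these comparisons 33.2% and 12.6% of all genes were called. The low TPM of day 43 had no matching call in the model of counts with the ribosomal percentage. There, day 43 differed from day 0 by -0.12 ± 0.38 on STD and -0.54 ± 0.29 on GW3965 (edgeR, adjusted P = 0.987 and 0.436).

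**Figure D2:**
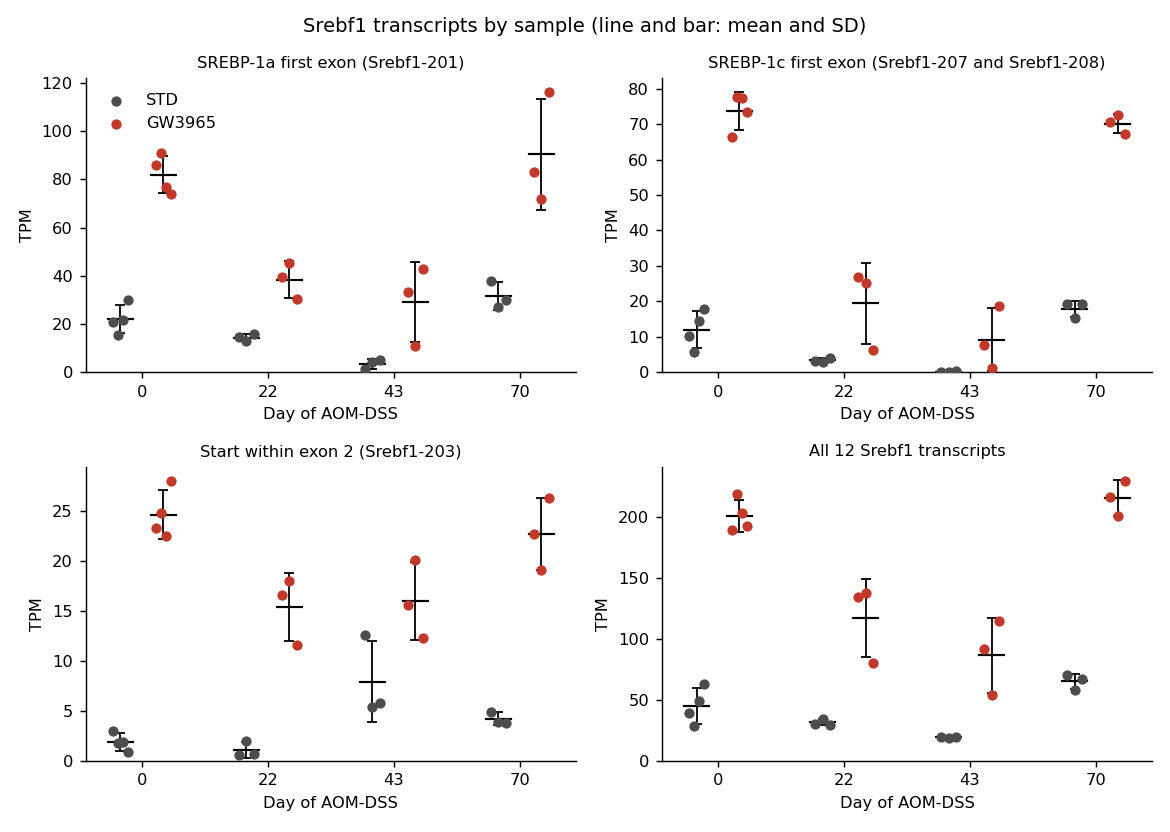
TPM of the *Srebf1* transcripts with the SREBP-1a first exon, with the SREBP-1c first exon, with the start within exon 2 and of all 12 transcripts (y axes, each from 0) in every sample by day (x axis, day 0 without AOM–DSS). Points are samples, grey for STD and red for GW3965, and the black line and bar are the mean and SD. All GW3965 points for the 1a and 1c first exons are above the STD points of their day, whereas Srebf1-203 on day 43 has its highest STD sample at 12.6 TPM and its lowest GW3965 sample at 12.3 TPM.

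For the SREBP-1c first exon on day 0, Srebf1-207 and Srebf1-208 together had 10.2, 5.64, 14.3 and 17.7 TPM on STD and 66.4, 77.8, 77.4 and 73.4 TPM on GW3965. All GW3965 values were above the STD values, by a ratio of the means of 6.15. The ratio was 9.07 among the mice with 22 days of diet and 4.71 among those with 43 days (n = 2 per diet each), where the STD means were 7.95 and 16.02 TPM. On day 22 the values were 3.03, 2.90 and 4.05 TPM on STD and 26.9, 25.04 and 6.30 TPM on GW3965, with 1 GW3965 sample close to the STD samples. On day 43 they were 0, 0.150 and 0.348 TPM on STD and 7.60, 1.08 and 18.6 TPM on GW3965. The order within the day 43 group followed the RIN on GW3965 (8, 6.8 and 9.3). On STD the sample at 0 had the lowest RIN (2.6), whereas that of RIN 8.4 (0.150 TPM) was below that of RIN 7.8 (0.348 TPM). The part of RNA integrity in these values was not tested. On day 70 the values were 19.1, 15.2 and 19.3 TPM on STD and 70.6, 72.5 and 67.3 TPM on GW3965. Srebf1-208 contributed 0 TPM in every group but GW3965 on day 0, where its mean was 0.176 TPM.

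In the model over all first-exon groups, the log2 fold change of the 1c first exon on GW3965 was 2.66 ± 0.56 (SE) on day 0, 2.69 ± 0.65 on day 22, 4.02 ± 0.87 on day 43 and 1.52 ± 0.64 on day 70. None passed edgeR's quasi-likelihood test after adjustment over 30882 first-exon groups (adjusted P = 0.341, 0.240, 0.0646 and 0.341), although the unadjusted edgeR P were 0.000122, 0.000533, 0.000163 and 0.0278. Of all groups, 0.0162%, 0.0356%, 0.223% and 0.159% were called on days 0, 22, 43 and 70. With DESeq2, the 1c first exon passed on days 0, 22 and 43 (DESeq2 adjusted P = 0.000747, 0.00767 and 2.49e-05) and not on day 70 (0.190). Without the 3 samples of RIN under 8, an alternative chosen after seeing the data, edgeR called it on days 0 and 22 (adjusted P = 0.000173 and 0.00121). The only STD sample then left on day 43 was that of RIN 8.4, so only the log2 fold change of that day is given, 5.29. The day 43 effect passed when the STD sample of RIN 7.8 alone was left out (5.63, edgeR adjusted P = 0.000271). Its diet effect did not differ between days by the test of the difference, with 0.03 ± 0.80 for day 22 minus day 0, 1.36 ± 1.03 for day 43 and -1.14 ± 0.83 for day 70 (edgeR, adjusted P = 1, 0.963 and 0.737).

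The SREBP-1a first exon was also higher on GW3965 in every sample on every day. On day 0, Srebf1-201 had 20.9, 15.6, 21.5 and 29.8 TPM on STD and 86.1, 90.8, 76.9 and 74.1 TPM on GW3965. On day 22 it had 14.4, 12.8 and 15.8 TPM on STD and 39.4, 45.4 and 30.2 TPM on GW3965. The ratio of the mean TPM on days 0 and 22 was 3.74 and 2.67, which is smaller than the ratio for the 1c first exon (6.15 and 5.83). The day 0 ratio was 4.85 after 22 days of diet and 2.95 after 43 days. On day 43 Srebf1-201 had 1.12, 4.39 and 5.04 TPM on STD and 33.3, 10.6 and 42.9 TPM on GW3965. Its lowest value on each diet on day 43 was in the sample of lowest RIN (2.6 and 6.8). On day 70 it had 37.9, 27.01 and 29.8 TPM on STD and 83.0, 72.0 and 116 TPM on GW3965. The log2 fold change was 1.88 ± 0.33 on day 0, 1.63 ± 0.38 on day 22, 2.38 ± 0.45 on day 43 and 1.36 ± 0.38 on day 70, and only that of day 43 passed edgeR's test (adjusted P = 0.0762, 0.228, 0.0238 and 0.146). The day 43 call was lost without the GW3965 sample of RIN 8 (2.18, edgeR adjusted P = 0.0798). DESeq2 called all 4 days (DESeq2 adjusted P = 3.55e-06, 0.00322, 7.63e-06 and 0.0167). The gene total rests on the same reads and was called on each day, whereas its division by first exon spread more between samples.

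Srebf1-203, the transcript that starts within exon 2, had the largest fold changes of the 3 coding transcripts on days 0, 22 and 70. On day 0 it had 3.02, 1.79, 1.90 and 0.879 TPM on STD and 23.3, 24.8, 22.6 and 28.0 TPM on GW3965. On day 22 it had 0.619, 2.01 and 0.654 TPM on STD and 16.6, 18.1 and 11.6 TPM on GW3965. On day 70 it had 4.94, 3.91 and 3.82 TPM on STD and 22.8, 19.1 and 26.3 TPM on GW3965. The groups did not overlap on these 3 days. The ratio of the day 0 means was 10 after 22 days of diet and 18.2 after 43 days, and the ratio for the gene as a whole was 5.99 and 3.54. The log2 fold change was 3.59 ± 0.38 on day 0 (edgeR, adjusted P = 9.34e-05), 3.91 ± 0.45 on day 22 (0.000485) and 2.54 ± 0.43 on day 70 (0.0298), and it was the only *Srebf1* first-exon group of 10 called on those days. The day 70 call was lost in edgeR when any 1 of the 3 STD samples of day 70 was left out (adjusted P from 0.0844 to 0.185).

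On day 43 Srebf1-203 had 12.6, 5.42 and 5.77 TPM on STD and 15.6, 20.1 and 12.3 TPM on GW3965, and the groups overlapped. Its log2 fold change was 1.22 ± 0.43 and did not pass (edgeR, adjusted P = 0.413). The difference from the day 0 effect was -2.37 ± 0.58, which missed the threshold in edgeR (adjusted P = 0.269) and passed it in DESeq2 (-2.41 ± 0.61, DESeq2 adjusted P = 0.0125). On each diet the sample with the most Srebf1-203 on day 43 was the one with the lowest RIN. In that STD sample (RIN 2.6), Srebf1-203 took 64.1% of the *Srebf1* TPM, and in that GW3965 sample (RIN 6.8) it took 37.5%, against 17.1% and 10.8% in the GW3965 samples of RIN 8 and 9.3. The STD samples of RIN 8.4 and 7.8 had similar shares of 28.8% and 29.1%. The share of all counts of a library on transcripts annotated without a complete 5′ end was 0.910% to 1.80% on day 0 and 1.36% to 2.10% on day 22. It was 1.82% to 2.95% on day 43 and 0.982% to 2.45% on day 70. On day 43 it was 2.20%, 2.75% and 2.87% in the STD samples of RIN 2.6, 8.4 and 7.8. In the GW3965 samples of RIN 8, 6.8 and 9.3 it was 2.08%, 2.95% and 1.82%. The part of this share in the result was not tested.

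**Figure D3:**
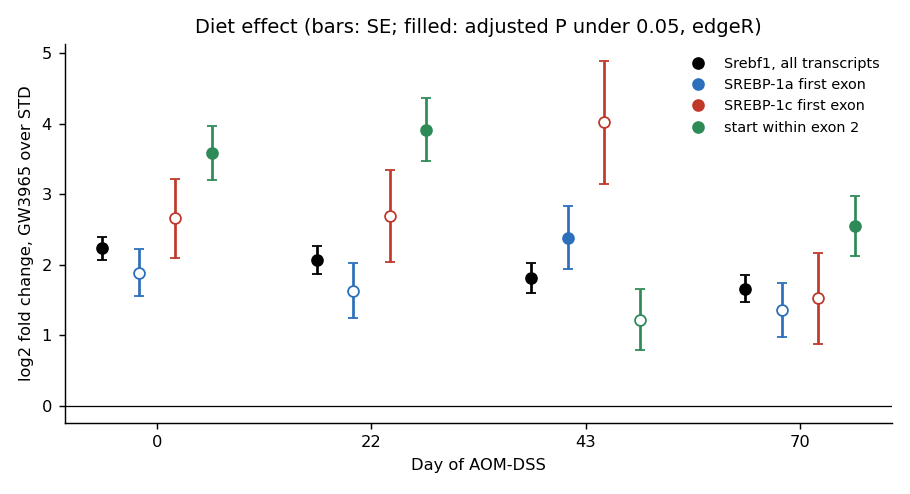
Log2 fold change of GW3965 over STD (y axis) on each day (x axis) for *Srebf1* as a whole and for 3 first-exon groups, with SE bars. Filled points passed an adjusted P of 0.05 in edgeR. All 16 points are above 0, the gene total is filled on each day, and the 1c first exon on none.

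Per transcript, 11 of the 12 *Srebf1* transcripts passed the filter on low counts, Srebf1-208 being the exception. Every GW3965 sample was above every STD sample for 4 of the 11 on day 0, 8 on day 22, 7 on day 43 and 5 on day 70. Among all 50783 transcripts tested, this was so for 1.68%, 4.48%, 8.76% and 7.37%. In edgeR's test 1 of the 11 was called on each day, and 0.0118%, 0.0138%, 0.4% and 0.0295% of all transcripts were called. It was Srebf1-203 on days 0, 22 and 70 and Srebf1-201 on day 43 (log2 fold change 2.35 ± 0.44, adjusted P = 0.0154). The non-coding transcripts that start inside the gene together had 5.84 ± 3.65 TPM on STD and 18.1 ± 6.31 TPM on GW3965 on day 0, and 10.3 ± 4.11 and 40.6 ± 9.21 TPM on day 22. The most abundant of them was Srebf1-206, with a mean of 3.48 TPM on STD and 18.1 TPM on GW3965 on day 22. Srebf1-204, the non-coding transcript with the most upstream start, had a mean of 3.25 ± 1.40 TPM on STD and 1.99 ± 1.37 TPM on GW3965 on day 0. Its log2 fold change was -0.65 ± 0.76 on day 0, less than its SE away from 0, and 1.00 ± 0.88, 0.93 ± 1.17 and 1.04 ± 0.90 on days 22, 43 and 70, and it was not called on any day (edgeR, adjusted P = 1, 1, 0.915 and 0.688).

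The make-up of *Srebf1* was compared next, as the share of each first exon in the TPM of the gene. On STD on day 0 the 1a first exon held 49.7% ± 4.90 (SD, n = 4), the 1c first exon 25.8% ± 4.33 and Srebf1-203 4.80% ± 2.76. On GW3965 these shares were 40.9% ± 3.53, 36.8% ± 1.59 and 12.4% ± 1.57 (n = 4). The 1c share did not overlap between diets, with 29.2% in the highest STD and 35.2% in the lowest GW3965 sample. On day 70 the 1c share was 27.5% ± 1.41 on STD and 32.7% ± 3.45 on GW3965 (n = 3 each). It was lower on day 22, at 10.7% ± 2.70 on STD and 15.4% ± 6.59 on GW3965, and lowest on day 43, at 0.852% ± 0.880 and 8.87% ± 7.13. The inner starts took larger shares of the TPM on these days, with 32.1% ± 10.1 on STD and 35% ± 2.34 on GW3965 on day 22. Their transcripts are short (516 to 945 bases), and TPM is corrected for length. In estimated counts they held far less on day 22, with means of 81.9 of 1460 on STD and 343 of 6389 on GW3965. On day 22 the STD samples of RIN 10, 9.6 and 9.8 had 1c shares of 9.96%, 8.41% and 13.7%. The GW3965 samples of RIN 9.6, 9.3 and 9.1 on that day had 20.0%, 18.3% and 7.83%. On day 70 the RIN was 9.4 to 10, with 1c shares of 26.2% to 36.2%. On day 43 the RIN was 2.6 to 9.3. The part of the RIN in the shares of these days was not tested.

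**Figure D4:**
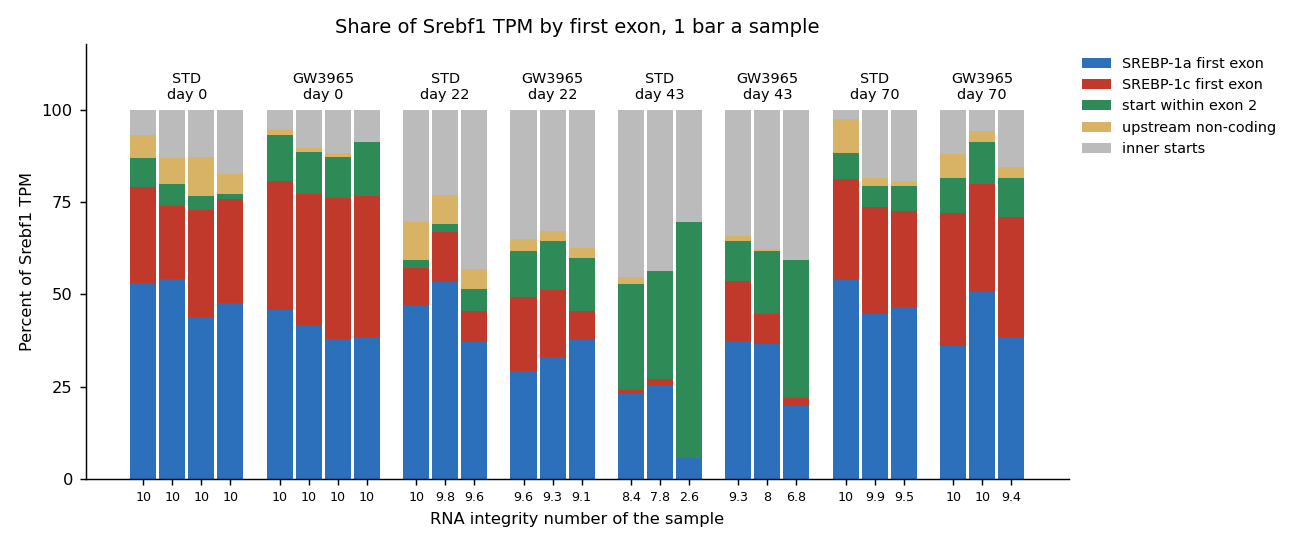
Percent of the *Srebf1* TPM (y axis) by first exon in each of the 26 samples, 1 stacked bar per sample, grouped by diet and day and ordered by RNA integrity number (x axis) within a group. The 1c share is largest in the day 0 and day 70 groups, and Srebf1-203 takes 64.1% in the STD sample of RIN 2.6 on day 43.

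Per sample, the log2 ratio of the 1c to the 1a counts (plus 1) was -1.42 ± 0.38 on STD and -0.62 ± 0.18 on GW3965 on day 0 (SD, n = 4 each). The difference of 0.80 had P = 0.0286 in a two-sided exact permutation test, the smallest value that 4 samples against 4 can give, and 0.114 after adjustment over the 4 days. It was 0.94 among the samples with 22 days of diet and 0.66 among those with 43 days. On day 22 the difference was 0.89 with overlapping groups, on day 43 it was 3.17 without overlap and on day 70 it was 0.48 with overlap (exact permutation P = 0.4, 0.1 and 0.2). With 3 samples against 3 these tests cannot go below 0.1. On day 43 the sign depended on the unit, since the ratio of TPM plus 1, where the added 1 outweighs the STD levels of 1c, gave a difference of -0.05. The ratio of Srebf1-203 to Srebf1-201 was examined after its values had been seen. It was higher on GW3965 by 1.88 on day 0, 2.60 on day 22 and 0.92 on day 70, without overlap, and lower by -1.99 on day 43, with overlap (exact permutation P = 0.0286, 0.1, 0.1 and 0.3, and 0.114, 0.133, 0.133 and 0.3 after adjustment).

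Across all genes with several first exons, edgeR tested whether a first exon moved by another fold than the rest of its gene. The 1c first exon was called on day 43 alone, with a log2 difference of 1.56 (edgeR, adjusted P = 0.0442), and it had 0.29, 0.44 and -0.07 on days 0, 22 and 70 (adjusted P = 1 each). The call on day 43 was lost without the STD sample of RIN 2.6 (0.95, edgeR adjusted P = 0.794) and without 3 other samples of that day in turn. For Srebf1-203 the difference was 0.93 on day 0, 1.29 on day 22, -0.38 on day 43 and 0.64 on day 70 (edgeR, adjusted P = 0.183, 0.134, 1 and 1). For the 1a first exon it was -0.25, -0.29, 0.43 and -0.18 (adjusted P = 1 each). Of 21666 first-exon groups, 0.0785%, 0.00923%, 0.42% and 0.134% were called on days 0, 22, 43 and 70. In simulated counts this test found 1 of 200 changed groups, so a missing call does not show that the usage stayed the same.

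Over the course of AOM–DSS, neither the 1a nor the 1c first exon was called between day 0 and a later day on either diet in the model with the ribosomal percentage. The 1c first exon was lower on day 22 than on day 0 by a log2 fold change of -1.27 ± 0.62 on STD and -1.24 ± 0.62 on GW3965 (edgeR, adjusted P = 0.311 and 0.250). On day 43 it was lower by -2.32 ± 1.43 on STD (edgeR, adjusted P = 0.886). Without the ribosomal percentage in the model, that value was -5.23 and passed (edgeR, adjusted P = 4.83e-05). On day 70 against day 0 it was 0.52 ± 0.57 on STD and -0.62 ± 0.60 on GW3965 (edgeR, adjusted P = 0.633 and 0.580). The 1a first exon changed by less, between -0.87 ± 0.78 (STD, day 43) and 0.41 ± 0.35 (STD, day 70). Of all first-exon groups, 2.76%, 0.0421% and 14.8% were called on STD and 5.91%, 0.223% and 9.8% on GW3965 for days 22, 43 and 70 against day 0. The marker lists moved between these days as well. On day 70 against day 0, 5 of 5 stratified epithelium markers and 5 of 5 proliferation markers were called higher on both diets, where 33.2% of all genes were called on STD and 21.8% on GW3965 in either direction. The summed stratified markers had 1949, 2725 and 2868 TPM on STD and 4.17, 7887 and 11420 TPM on GW3965 on day 70, so that 1 GW3965 sample had almost none. On STD, 5 of 5 smooth muscle and 5 of 6 adipocyte markers were called lower, and on GW3965, 5 of 5 skeletal muscle markers were called higher. In the latter, only 1 GW3965 sample of day 70 lay above the day 0 range. The summed skeletal muscle markers had 20.7, 32.8 and 21050 TPM there in ascending order, beside 25.6 to 83.1 TPM on day 0. The part of these markers in the *Srebf1* values was not tested.

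The genes that SREBP-1 is known to switch on were examined as a list of 18 lipid-synthesis genes, chosen like the other lists with earlier results of these data known. Among them, 0, 2, 0 and 1 were called higher on GW3965 on days 0, 22, 43 and 70 and none lower. In either direction, 8, 10, 6 and 9 had an unadjusted edgeR P under 0.05, and those of day 22 included a gene that was lower on GW3965 without overlap. The fold change was above 0 for 13, 16, 16 and 14 of the 18. Over all genes, the called shares were 0.0293%, 0.135%, 0.0293% and 1.83% as above, and 1.94%, 9.96%, 8.65% and 18.8% had an unadjusted edgeR P under 0.05. The median log2 fold change of the list was 0.37, 0.62, 0.41 and 0.70, beside medians between -0.03 and 0.02 over all genes. *Scd2*, a stearoyl-CoA desaturase that makes monounsaturated fatty acids, was called on day 22, with 95.4 ± 13.97 TPM on STD and 254 ± 79.7 TPM on GW3965 (log2 fold change 1.61 ± 0.30, edgeR adjusted P = 0.0335, n = 3 each). *Fads1*, a desaturase of polyunsaturated fatty acids, was called on day 22 too (1.12 ± 0.19, edgeR adjusted P = 0.0145). The call of *Scd2* was lost when any 1 of the 6 samples of day 22 was left out (edgeR adjusted P from 0.0784 to 0.197), and that of *Fads1* without any 1 of the 3 STD samples or GW3965 replicate 2 (0.0584 to 0.0963). *Scd1*, a further stearoyl-CoA desaturase, had fold changes of 1.27 ± 0.51, 2.07 ± 0.61 and 1.97 ± 0.65 on days 0, 22 and 43 without overlap between the diets and was not called (edgeR, adjusted P = 1, 0.176 and 0.489). *Fasn*, the fatty acid synthase, had 14.95 ± 2.81 TPM on STD and 32.1 ± 8.04 TPM on GW3965 on day 22 (1.26 ± 0.35, edgeR adjusted P = 0.152). *Acacb*, the mitochondrial acetyl-CoA carboxylase, was called on day 70 (2.70 ± 0.69, edgeR adjusted P = 0.0496) with overlapping groups, 0.956 ± 0.673 TPM on STD and 7.72 ± 9.89 TPM on GW3965. Without GW3965 replicate 1 of day 70 its fold change was 0.82 (edgeR adjusted P = 0.587), and the call was also lost without any 1 of the 3 STD samples.

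**Figure D5:**
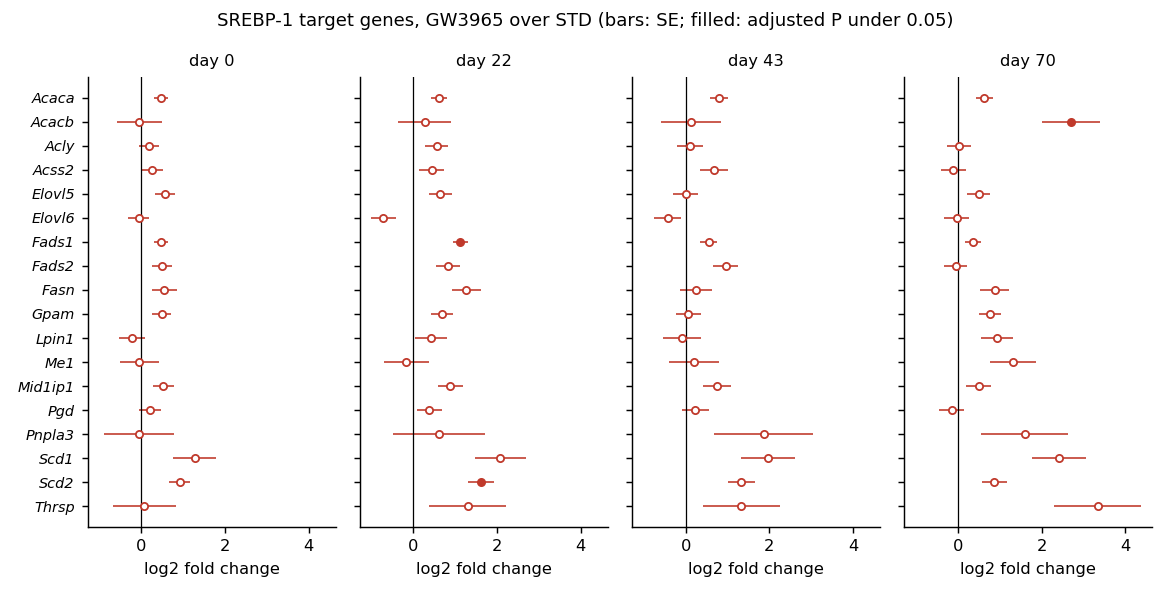
Log2 fold change of GW3965 over STD (x axes) with SE bars for 18 SREBP-1 target genes (rows) on each of the 4 days (panels). Filled points passed an adjusted P of 0.05 in edgeR, which were *Fads1* and *Scd2* on day 22 and *Acacb* on day 70.

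*Acacb* is strongly expressed in muscle and fat, so markers of both were read on day 70. The median log2 fold change was 3.79 over 6 adipocyte markers, with summed levels of 13.8 to 52.0 TPM on STD and 22.3 to 289 TPM on GW3965, 1 marker being at 0 in all STD samples. It was 3.04 over 5 skeletal muscle markers, whose summed levels were 12.1, 180.2 and 988 TPM on STD and 20.7, 32.8 and 21050 TPM on GW3965 in ascending order, so that 1 GW3965 sample stood far above the others. None of these 11 genes passed the test, and their part in the *Srebf1* values was not tested. Of 5 B-lineage markers, 4 were called higher on GW3965 on day 70, where 1.83% of all genes were called. The summed levels of the 5 overlapped between diets. In ascending order they were 142.6, 286.8 and 717.1 TPM on STD and 239.7, 451.4 and 2486 TPM on GW3965. All 6 macrophage markers were higher with none called. On day 0 the medians of the 8 marker lists lay between -0.45 (stratified epithelium) and 0.08 (B lineage), beside -0.02 over all genes, with 0 called in any list. The part of these markers in the *Srebf1* values of day 0 was not tested.

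Of 14 genes that process, degrade or assist SREBPs, 1 was called higher on day 70 and none on the other days, with medians between 0.02 and 0.09. It was *Rnf145*, which encodes an E3 ubiquitin ligase that acts on SCAP, with 37.1 ± 5.03 TPM on STD and 62.7 ± 10.4 TPM on GW3965 (0.53 ± 0.11, edgeR adjusted P = 0.0265), a call that was lost without any 1 of the 3 STD samples (0.0714 to 0.145). On day 0 it had 34.98 ± 4.28 and 50.5 ± 2.62 TPM without overlap (0.48 ± 0.09, edgeR adjusted P = 0.155). *Srebf2*, the paralogue that governs cholesterol synthesis, had 71.2 ± 18.9 TPM on STD and 74.8 ± 9.71 TPM on GW3965 on day 0 (0.05 ± 0.18, edgeR adjusted P = 1), with overlapping groups on each of the 4 days. Of the 5 LXR and RXR genes, none was called on any day.

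Among 17062 other genes, those whose log2 CPM over the 26 samples was most like that of the 1c first exon included *Lpcat3* (Pearson r = 0.91), *Acaca* (0.90), *Scd2* (0.89) and *Rnf145* (0.89). For the 1a first exon they were *Lpcat3* (0.93), *Scd2* (0.85), *Cyp2w1* (0.84), *Gramd1b* (0.83) and *Mid1ip1* (0.83). *Lpcat3*, a phospholipid-remodelling acyltransferase, led both, and *Acaca*, the cytosolic acetyl-CoA carboxylase, and *Mid1ip1*, which activates it, are genes of the SREBP-1 target list. The median r over all genes was -0.02 and -0.01. The samples share diet, day, cage and RNA integrity, so these values are a description.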

How the data were processed

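Bulk RNA-seq of 26 mouse colon samples was analysed. Per the paper's methods, Kallisto was run on GRCm38 cDNA, and the authors deposited estimated counts (expected counts, which need not be whole) and TPM per transcript, without a stated filter. The Kallisto version and the Ensembl release are not given in the sources used here. Of 119414 transcripts, 116728 (97.8%) were matched by identifier to GENCODE GRCm38, and 0.615% to 0.999% of counts per sample fell on unmatched ones. Totals ranged from 18195345 to 41522204. Counts were summed by transcript, by first-exon group (overlapping first exons of a gene) or by gene and rounded. TPM were used for levels.

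Groups came from the labels and titles. The members, lists and tests were chosen with earlier results of these data known. Counts kept by filterByExpr and scaled by TMM were tested with edgeR 4.0.16 (quasi-likelihood F-test, R 4.3.3) in a model of 8 groups of diet and day and the centred percentage of counts on 88 ribosomal protein genes, with Benjamini-Hochberg adjustment over all features and a threshold of 0.05. SE is the fold change divided by the square root of F. First-exon usage was tested with diffSpliceDGE, and per-sample ratios (pseudocount 1) with two-sided exact permutation tests (scipy 1.17.1). DESeq2 1.42.0, other scalings and filters, other samples and a replicate block were alternatives. Genes outside *Srebf1* were named if a list gene was called on a day or did not overlap between diets on 3 or more days, or was among the 5 most correlated with the 1a or 1c group. One gene named by this rule is not reported here. The labels do not say that samples came from separate litters, and p-values measure the spread between these samples. In simulated counts for 30882 first-exon groups with 200 changed on day 70 by a log2 fold change of 2, edgeR called 122, of which 121 were changed ones. For usage in the same counts, diffSpliceDGE called 2 groups on day 70, of which 1 was a changed one. It called 3, 4 and 5 groups on days 0, 22 and 43, where none was changed.

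The diets use the same replicate numbers on a given day. The correlation of deviations from group means within 13 same-numbered pairs lay between -0.192 and 0.112, so the numbers were not treated as pairing.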

Additional observations from a re-analysis of the deposited data

How the results depend on the processing

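Of 1430 alternative values of 147 results, 1215 kept their direction and their side of the threshold, or stayed within 1.5 times for counts. The whole-gene diet effect of *Srebf1* was called on each day under every alternative run for genes, with log2 fold changes of 1.51 to 2.39 over all days. On day 43, the alternative without samples of RIN under 8 left only the STD sample of RIN 8.4. Where a call moved, the cause was not tested. The counts of calls over all features depended on the setting far more than the *Srebf1* fold changes did.

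With DESeq2's Wald test the diet effect of the 1c first exon was 2.64, 2.69 and 3.99 on days 0, 22 and 43 and was called. That of the 1a first exon was 1.87, 1.64 and 1.38 on days 0, 22 and 70 and was called too. Srebf1-203 changed by 1.05 between day 0 and day 70 on STD and by 0.042 on GW3965, and its diet effect on day 43 minus day 0 was -2.41. DESeq2 called 142, 361, 423 and 1114 first-exon groups and 30, 295, 68 and 1162 genes on the 4 days, against 5, 11, 69 and 49 groups and 5, 23, 5 and 312 genes in edgeR. Without the 3 samples of RIN under 8, chosen after seeing the data, the only STD sample left on day 43 was that of RIN 8.4. For the 1c first exon on that day, only the size of the diet effect is therefore given, 5.29. In this setting edgeR called the 1c first exon on days 0 and 22 (2.64 and 2.69) and the 1a first exon on days 0, 22 and 70 (1.86, 1.59 and 1.45). It then called the fall of the 1c first exon from day 0 to day 22 (-1.31 on STD and -1.27 on GW3965), the rise of Srebf1-203 to day 70 on STD (1.07) and its usage on days 0 and 22 (0.93 and 1.28). In this setting the GW3965 changes from day 0 to day 70 were 0.059 for the 1a first exon and 0.044 for Srebf1-203, *Acacb* on day 43 was at -0.28, and the calls were 18, 244 and 22 first-exon groups on days 22, 43 and 70, 4 and 45 for usage on days 22 and 70 and 14 genes on day 43.

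Without the ribosomal percentage the 1c first exon was called on day 43 (5.33), and the changes from day 0 to day 43 were -5.23 on STD and -2.48 on GW3965 for the 1c first exon, -1.67 on STD for the 1a first exon, and 3.00 on STD and 0.23 on GW3965 for Srebf1-203. The 1c usage on day 70 became 0.16, and the calls were 410 and 96 first-exon groups on days 43 and 70, 0, 506 and 8 for usage on days 22, 43 and 70, 903 and 29 transcripts on days 43 and 70, and 13, 18 and 524 genes on days 22, 43 and 70. With only the samples of the day and no ribosomal percentage, the 1c first exon was called on day 0 (2.56) and the 1a first exon on days 0 and 22 (1.84 and 1.58), whereas the 1a first exon on day 43 (2.69) and Srebf1-203 on days 22 and 70 (3.93 and 2.39) were not, and 8, 7, 0 and 0 first-exon groups were called on the 4 days.

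The change of Srebf1-203 from day 0 to day 70 on GW3965 lay near 0, with 0.040 under DESeq2 size factors, 0.053 with no filter, 0.0066 without the sample whose labels disagree and 0.014 for groups of the same annotated start, and the calls were 74 first-exon groups on day 70 with DESeq2 size factors, 9 groups and 195 genes on day 70 without the sample whose labels disagree, and 7, 164 and 15 on days 22, 43 and 70 for groups of the same annotated start. With no filter the 1c usage on day 43 was 1.57 and not called, and 29, 4 and 55 groups were called for usage on days 0, 22 and 70. The day 0 differences without the sample whose labels disagree were 0.75 for the ratio of 1c to 1a and 1.77 for that of Srebf1-203 to Srebf1-201 (exact permutation P = 0.0571 each, the smallest that 4 against 3 can give). With TPM in place of counts the ratio of 1c to 1a on day 43 was -0.053.

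Same-numbered samples share only a number. A replicate block with the ribosomal percentage changed no diet call of a *Srebf1* first exon. It called the day 70 change of Srebf1-203 on STD (1.17), turned that on GW3965 to 0.19, lost the calls of *Scd2* on day 22 and *Acacb* on day 70 (edgeR adjusted P = 0.0624 and 0.0741), and called 7, 35 and 10 first-exon groups on days 22, 43 and 70, 5 for usage on day 22, 8 transcripts on day 70, and 15 and 188 genes on days 22 and 70.

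Leaving out 1 sample at a time gave diet effects on day 43 from 3.24 to 5.63 for the 1c first exon, called without STD replicate 3, and from 1.93 to 3.05 for the 1a first exon, lost without GW3965 replicate 1. Srebf1-203 ranged from 2.43 to 2.83 on day 70, and the 1c usage from 0.95 to 2.64 on day 43 and from -0.24 to 0.039 on day 70. The change from day 0 to day 70 ranged from -0.44 to 0.069 for the 1a first exon on GW3965, and for Srebf1-203 from -0.11 to 0.11 on GW3965 and from 0.74 to 1.36 on STD. The diet effect on day 22 minus day 0 ranged from -0.16 to 0.25 for the 1c first exon and from -0.029 to 1.00 for Srebf1-203. The day 0 ratios ranged from 0.63 to 0.92 for 1c to 1a and from 1.40 to 2.16 for Srebf1-203 to Srebf1-201. The calls ranged from 6 to 9, 42 to 351 and 6 to 555 first-exon groups on days 22, 43 and 70, with 351 on day 43 without STD replicate 3, and 6 and 555 on day 70 without STD replicate 1 and GW3965 replicate 3. They ranged from 5 to 21, 2 to 285 and 6 to 1464 genes on days 22, 43 and 70, with 285 on day 43 without STD replicate 2 and 6 and 1464 on day 70 without STD replicate 1 and GW3965 replicate 3, and from 1 to 18, 0 to 6, 54 to 233 and 9 to 47 for usage on the 4 days. The diet effect of *Acacb* ranged from -0.20 to 0.32 on day 0 and from -0.17 to 0.38 on day 43, and that of *Fasn* from -0.22 to 0.85 on day 43. The 1c first exon held only 0 to 37.4 estimated counts in the STD samples of day 43, and the library with 0 was the deepest (41522204 counts).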
